A study of Mus musculus with 2 samples.

Results

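The genes described here are the ligands, receptors, co-receptors, adaptors, feedback inhibitors and target transcription factors of fibroblast growth factor (FGF) signalling in the embryonic mouse midbrain. They were taken from a list of 51 gene symbols by pathway role, with no threshold on a measured value. Of these, 50 were matched by name to a row among the 43346 genes of the tables. The Sprouty gene Spry3 was not matched and was counted as not measured. RNA came from midbrain of B6NCrl mouse embryos at embryonic day 10.5. There was 1 group with 2 biological replicates, both from healthy embryos, and the labels name no treatment or mutation. Replicate 1 pooled 69 embryos and replicate 2 pooled 51 embryos, each of mixed sex. Each library therefore averages many embryos and every cell type of the dissected piece. With 2 libraries of 1 group, no condition was tested and no p-value is given.

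FGFs bind receptor tyrosine kinases together with heparan sulfate. The activated receptors phosphorylate the docking protein Frs2, which recruits Grb2, Sos1 and Ptpn11 and thereby activates the RAS and ERK cascade. ERK activity induces its own inhibitors, among them Sprouty, Spred and dual-specificity phosphatase genes, and the Pea3 family of ETS transcription factors. In the midbrain, Fgf8 from the isthmic organizer, a signalling centre at the border with the hindbrain, patterns the tissue and keeps its cells alive. Related ligands of the same subfamily, Fgf17 and Fgf18, are made around it.

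What a receptor binds depends on its last immunoglobulin-like domain, whose second part comes from either of 2 mutually exclusive exons. Transcripts with the upstream exon are called IIIb and those with the downstream exon IIIc. In general the IIIc forms of Fgfr1 to Fgfr3 bind Fgf8 subfamily ligands, whereas the IIIb forms of Fgfr1 and Fgfr2 bind Fgf10 and its relatives. The pair of Fgfr3 is printed here as an example, because exons of this kind separate the transcripts counted below. Sequences and positions are those of the GENCODE M21 transcripts on GRCm38. Capitals mark bases that align with the same base of the other exon of the pair.
Fgfr3 IIIb (chr5:33731281-33731431, plus strand): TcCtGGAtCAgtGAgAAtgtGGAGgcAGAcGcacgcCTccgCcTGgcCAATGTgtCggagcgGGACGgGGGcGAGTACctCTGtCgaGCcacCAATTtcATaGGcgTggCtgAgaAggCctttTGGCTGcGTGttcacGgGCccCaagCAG
Fgfr3 IIIc (chr5:33732117-33732261, plus strand): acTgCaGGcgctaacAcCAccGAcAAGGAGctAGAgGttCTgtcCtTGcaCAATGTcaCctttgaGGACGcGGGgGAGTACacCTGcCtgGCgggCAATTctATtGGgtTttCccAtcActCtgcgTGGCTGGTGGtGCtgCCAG
The exons have 151 and 145 bases and matched at 81 of 160 aligned columns (50.6%).

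Another choice of this kind is made in Fgf8, at the start of an exon near the 5′ end of its coding region. A longer form of that exon adds 33 bases, which code for 11 amino acids. The form called Fgf8b carries them and the form called Fgf8a lacks them. In experiments on chick and mouse embryos Fgf8b is the more potent of these forms in changing midbrain fate. Capitals mark the added bases, and the lower-case bases are common to all Fgf8 transcripts in the tables.
Fgf8 segment (chr19:45741617-45741679, minus strand): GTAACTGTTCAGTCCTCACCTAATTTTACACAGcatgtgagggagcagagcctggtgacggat

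Expression is given in TPM, the deposited length-corrected share of all transcripts, so that genes can be set side by side. A gene was counted as detected at 1 TPM or more in both libraries. By this measure 33 of the 50 measured members were detected. Among all 21474 protein-coding genes the detected share was 58.1%. The median level of the detected members was 16.0 TPM, or 4.09 as log2(mean TPM + 1). It was 20.7 TPM, or 4.44, over all detected protein-coding genes. Of the members, 19 had a mean of 10 TPM or more. The plot of levels by role shows where the 17 undetected members lie. Of them, 12 are secreted ligands and 2 are intracellular FGF homologous factors, and the others are Fgfr4, Kl and Klb.

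**Figure D1:**
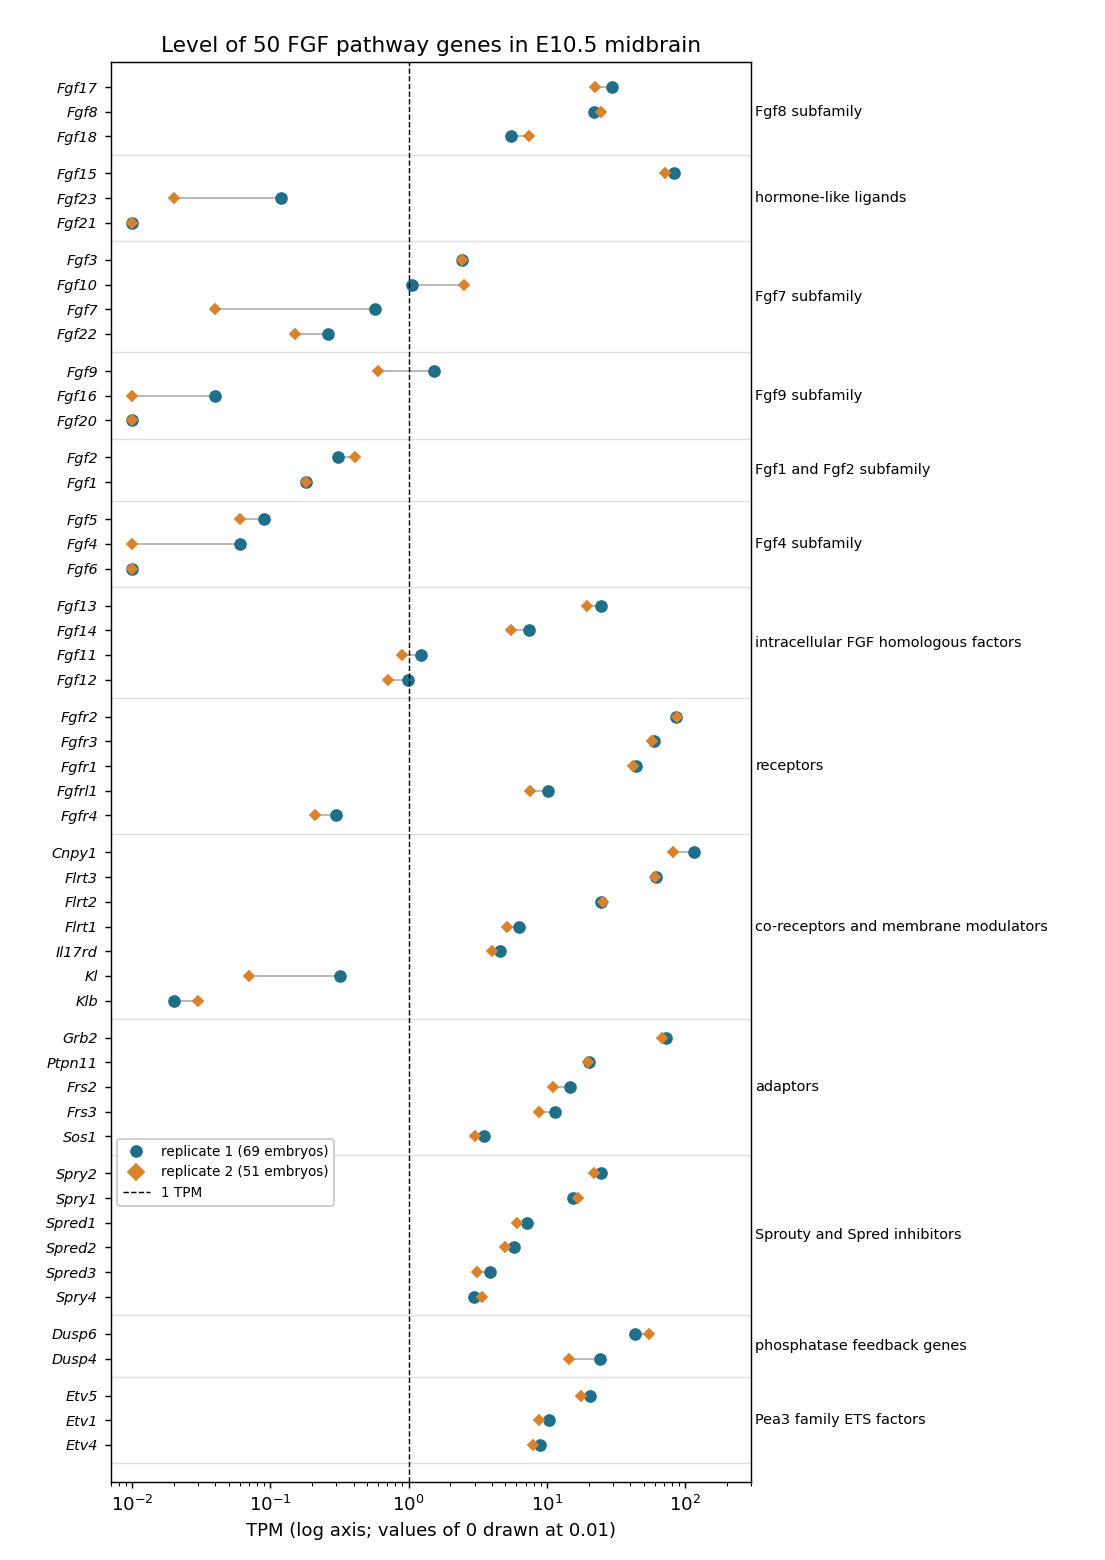
Level of each of the 50 measured FGF pathway genes in TPM on a log axis, with genes in rows grouped by role, circles for replicate 1 and diamonds for replicate 2. The detected ligands, Fgfr1 to Fgfr3, the adaptors and the feedback genes lie right of the dashed line at 1 TPM, while most other ligands, Fgfr4, Kl and Klb lie left of it. Values of 0 are drawn at 0.01.

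Of 18 secreted ligand genes, 6 were detected: Fgf15, Fgf17, Fgf8, Fgf18, Fgf3 and Fgf10. Fgf15, the mouse counterpart of human FGF19 and a ligand made by neural progenitors, stood at 82.37 TPM in replicate 1 and 71.1 TPM in replicate 2. Fgf17, an Fgf8 relative active in midbrain and cerebellum growth, stood at 29.52 and 22.16 TPM. Fgf8 itself stood at 21.7 and 24.65 TPM. Fgf15 was thus above every other ligand in both libraries, at 3.80 and 2.88 times Fgf8. The order of Fgf17 and Fgf8 was not stable, since Fgf17 was 1.36 times Fgf8 in replicate 1 and 0.899 times in replicate 2. Fgf18, the other member of the subfamily, was lower at 5.51 and 7.45 TPM, below Fgf8 and Fgf17 in both libraries.

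As a share of the summed TPM of all 18 secreted ligands, 145.7 in replicate 1 and 131.7 in replicate 2, Fgf15 held 55.2% ± 1.8 (SD, n = 2). The Fgf8 subfamily held 38.9% and 41.2%, a mean of 40.1% ± 1.6. Within it Fgf17 held 18.5% ± 2.4, Fgf8 16.8% ± 2.7 and Fgf18 4.72% ± 1.3. Nearly all secreted ligand RNA was therefore of Fgf15 or the Fgf8 subfamily, and the Fgf7 subfamily came next with 3.41% ± 0.66. In expected counts, which are not divided by length, the Fgf8 subfamily held 31.9%. Fgf8 lies at chr19:45736798-45742915, Fgf17 at chr14:70636203-70642268, Fgf18 at chr11:33117430-33147400 and Fgf15 at chr7:144896531-144900953 (GRCm38).

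Of the Fgf7 subfamily, whose members signal mainly through IIIb receptors, Fgf3 and Fgf10 were detected and Fgf7 and Fgf22 were not. Fgf3, a ligand of the hindbrain and the ear primordium, was at 2.41 and 2.42 TPM. Fgf10, best known from limb and lung buds, was at 1.06 and 2.50 TPM. In TPM Fgf3 was nearly equal in both pools. Its counts were 126 and 162, a scaled ratio of 1.19 with a counting interval from 0.936 to 1.51. Fgf10 differed between the pools, as set out below. Fgf7 was at 0.57 TPM from 18 counts and at 0.04 TPM from 3 counts, so both values rest on few reads.

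The other secreted ligands were near the lower limit. Fgf9 reached 1.52 TPM in replicate 1 and 0.60 TPM in replicate 2. Its counts differed less, 66 and 50, a ratio of 0.702 with a counting interval from 0.475 to 1.03. The TPM ratio was 0.395, because reads were assigned to shorter Fgf9 transcripts in replicate 1, where the mean effective length was 1480 bases, than in replicate 2, where it was 2493 bases. Fgf1, Fgf2, Fgf4, Fgf5, Fgf16, Fgf22 and Fgf23 lay between 0 and 0.41 TPM. Fgf6, Fgf20 and Fgf21 had 0 counts in both libraries. For these 3, the 3 counts that a count of 0 still allows equal 0.0902, 0.110 and 0.123 TPM in replicate 1 and slightly less in replicate 2. Lower levels were not detectable at this depth. In bulk tissue, few cells with much of an RNA and many cells with little of it cannot be told apart.

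The 6 models of Fgf8 in the tables could be sorted by the printed 33-base segment, which 3 of them hold. Transcripts with the segment summed to 10.4 TPM in replicate 1 and 12.83 TPM in replicate 2. Those without it summed to 11.3 and 11.83 TPM. The share with the segment was 47.9% and 52.0%, with an SD of 2.9 (n = 2), so neither form prevailed beyond the spread between the libraries. Fgf8-206, whose 215 codons are those of Fgf8b, was at 4.34 and 7.15 TPM. Fgf8-205, whose 204 codons are those of Fgf8a, was at 2.42 and 3.46 TPM. The Fgf8b model was thus above the Fgf8a model in both libraries, but the deposited credible intervals overlapped in both libraries. In replicate 1 the interval was 2.24 to 5.85 TPM for Fgf8b and 1.03 to 3.81 TPM for Fgf8a. In replicate 2 it was 5.04 to 8.85 TPM for Fgf8b and 2.04 to 5.05 TPM for Fgf8a. Fgf8-202, with 268 codons and no segment, had 25.3% of the gene's TPM in replicate 1 and 25.8% in replicate 2. Fgf8-201, with 244 codons and the segment, had 5.42 and 4.31 TPM.

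**Figure D2:**
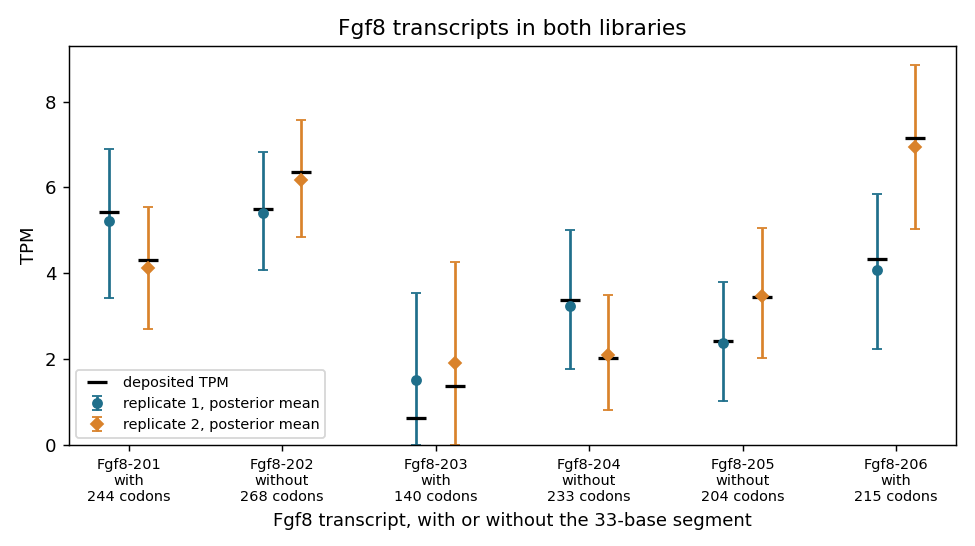
TPM of the 6 Fgf8 transcripts in both libraries. Points are posterior means with the deposited credible interval (level not stated in the file headers), and black dashes are the deposited TPM. Under each name stand the presence of the 33-base segment and the codon number. In both libraries the intervals of Fgf8-206, with the segment, and Fgf8-202, without it, overlap, while that of Fgf8-203, with the segment, lies below that of Fgf8-202.

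Fgf17 and Fgf15 gave no such choice, since Fgf17-201 with 216 codons and Fgf15-201 with 218 codons held 100% of their genes' TPM in both libraries. Among the intracellular FGF homologous factors, which are not secreted and bind voltage-gated sodium channels, Fgf13 was highest at 24.46 and 19.37 TPM. Fgf14 followed at 7.40 and 5.52 TPM, and Fgf11 and Fgf12 stayed near 1 TPM. Fgf13 was 3.31 and 3.51 times Fgf14. Its reads were divided between Fgf13-201, with 245 codons and 10.96 and 8.78 TPM, and Fgf13-202, with 192 codons and 9.27 and 7.62 TPM. These models held 44.8% and 37.9% of Fgf13 in replicate 1 and 45.3% and 39.3% in replicate 2. The division between them was alike in both pools.

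All 3 main receptors were above the median detected gene. Fgfr2 stood at 85.2 and 87.25 TPM, Fgfr3 at 59.78 and 57.2 TPM and Fgfr1 at 43.92 and 42.14 TPM. Fgfr4 was at 0.30 and 0.21 TPM, below detection. Of the summed TPM of Fgfr1 to Fgfr4, Fgfr2 made up 45.9% ± 1.2 (SD, n = 2), Fgfr3 31.1% ± 0.69, Fgfr1 22.9% ± 0.46 and Fgfr4 0.135% ± 0.033. The distances between the 3 main shares exceeded the spread between the libraries. Fgfrl1, a receptor-like protein without a kinase domain, was at 10.2 and 7.59 TPM.

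The lead of Fgfr2 came from transcripts that lack both the IIIb and the IIIc exon. A single model, Fgfr2-217, held 22.02 and 26.76 TPM, which was 25.8% and 30.7% of the gene. Its annotated start lies more than 2815 kb upstream of the other Fgfr2 models. It has 2 exons out there and 5 exons at the 3′ end of Fgfr2, with 182 codons in all. Its first exon is at chr7:133123141-133123350, while the gene as annotated spans chr7:130162451-133123350. Models with a retained intron held a further 20.8% and 17.7%, of which Fgfr2-221 alone had 9.58 and 9.03 TPM. Whether the reads of Fgfr2-217 came from its distant exons or from the shared 3′ exons was not tested, since the tables hold no values per exon.

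Counting only transcripts with the IIIb or IIIc exon changed the order of the receptors. Fgfr3 then stood at 52.0 and 50.6 TPM, Fgfr2 at 45.5 and 45.1 TPM and Fgfr1 at 36.7 and 36.4 TPM. As shares of these 3 genes, without Fgfr4 in the sum, the means were 38.5% for Fgfr3, 34.0% for Fgfr2 and 27.5% for Fgfr1. Coding transcripts without Fgfr2-217 gave nearly the same, 37.4%, 34.6% and 28.0%. Both of these countings were chosen after the data had been seen. Under them Fgfr3 was above Fgfr2 in both libraries, whereas in gene totals Fgfr2 was 1.43 and 1.53 times Fgfr3. Fgfr1 was the lowest of the 3 under each counting.

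**Figure D3:**
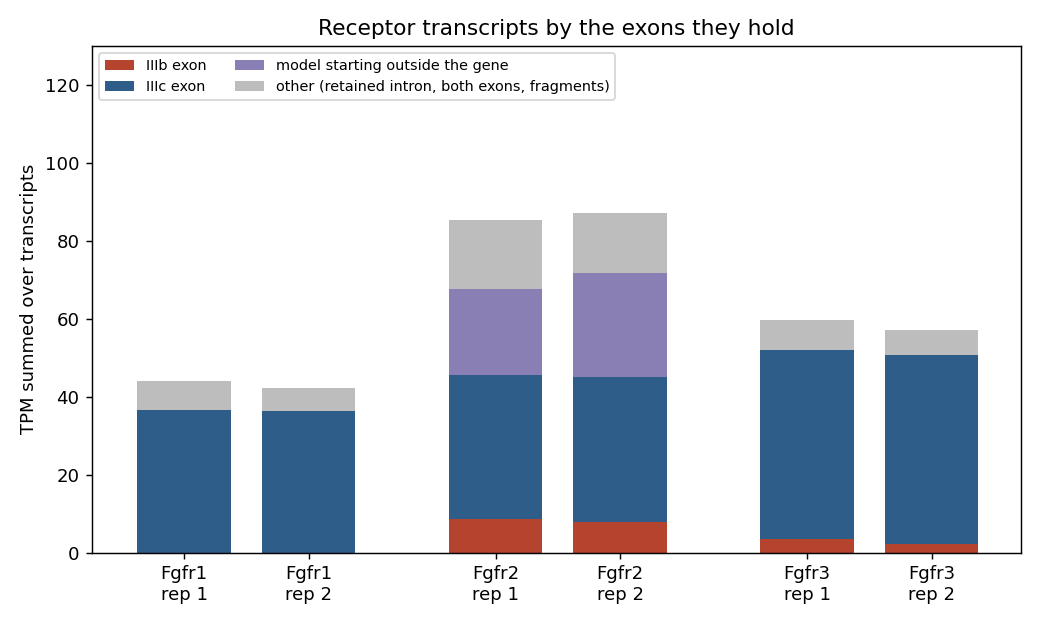
Stacked bars of summed transcript TPM for Fgfr1, Fgfr2 and Fgfr3 in each library (rep 1, rep 2), coloured by the exon a transcript holds. Blue IIIc segments make up most of every bar except those of Fgfr2, where the model that starts outside the gene and the other models take more than the IIIc transcripts do. Red IIIb segments are visible for Fgfr2 and Fgfr3 only.

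Transcripts with the IIIc exon prevailed in all 3 genes. In Fgfr1 the IIIb exon was held by 2 coding models, both listed at 0, so its share was 0% in both libraries. The posterior means, which are never exactly 0, put it at 0.863% and 0.672%. The 3 counts that a count of 0 allows equal 0.0713% and 0.0610%, and they cover counting error only, not the assignment of reads among models. A model subject to nonsense-mediated decay, Fgfr1-208, holds both exons in a row and had 1.36 and 0.99 TPM.

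In Fgfr2, IIIb transcripts stood at 8.61 and 7.97 TPM against 36.88 and 37.1 TPM for IIIc. The IIIb share was 18.9% and 17.7%, a mean of 18.3% ± 0.88 (SD, n = 2). It rested on Fgfr2-208 and Fgfr2-211, whose models were 2296 and 3053 bases long as quantified. In GENCODE M21 the model of Fgfr2-211 has 4311 bases. The main IIIc models, Fgfr2-207 with 20.58 and 20.33 TPM and Fgfr2-215 with 16.3 and 16.62 TPM, are 4223 and 3323 bases long. In expected counts, which are not divided by these lengths, the share was 14.2% and 13.4%. The credible interval of Fgfr2-208 ran from 0.782 to 3.89 TPM in replicate 1 and that of Fgfr2-211 from 3.57 to 6.05 TPM.

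In Fgfr3, IIIb transcripts were at 3.44 and 2.26 TPM and IIIc transcripts at 48.57 and 48.34 TPM. The share of IIIb was 6.61% and 4.47%, a mean of 5.54% ± 1.5. All of it was Fgfr3-211, whose interval went from 1.30 to 5.55 TPM in replicate 1 and from 0.524 to 4.40 TPM in replicate 2. Among IIIc models, Fgfr3-201 had 21.99 and 23.08 TPM, Fgfr3-209 had 16.22 and 14.84 TPM and Fgfr3-210 had 6.37 and 6.47 TPM. The IIIb share was thus lowest in Fgfr1, higher in Fgfr3 and highest in Fgfr2 in both libraries.

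The receptor models differed in 2 further places. The exon for the outermost immunoglobulin-like domain, which lowers affinity for ligand, was present in 71.3% and 74.7% of the Fgfr1 transcripts with full coding regions. In Fgfr2 it was present in 35.8% and 37.2%. Hence the shorter Fgfr2 form with only the inner domains was the more abundant, while in Fgfr1 the longer form was. Of Fgfr1, Fgfr1-202 with 820 codons had 18.74 and 16.87 TPM, Fgfr1-203 with 733 codons had 10.54 and 9.21 TPM and Fgfr1-201 with 822 codons had 6.75 and 8.76 TPM. Close to the membrane, an alternative splice donor adds 6 bases that code for valine and threonine, a pair of residues needed for binding Frs2. Capitals mark them in Fgfr2, at the end of the exon that follows IIIb or IIIc.
Fgfr2 donor end (chr7:130196172-130196201, minus strand): aagcgcatccccctgcggagacagGTAACA
All 6 full coding Fgfr1 models have this exon at the same length, so they could not be divided in this way. Whether they carry the 6 bases was not tested. In Fgfr2, 8 of 15 full coding models carry them, and these made up 54.8% and 54.6% of the TPM. The SD over the pools was 0.14 percentage points (n = 2).

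Among co-receptors and membrane modulators, Cnpy1, a canopy family protein known from zebrafish to support FGF receptor function at the midbrain border, was highest at 115.5 and 81.0 TPM. It was the highest of all 50 members in replicate 1, and in replicate 2 it came after Fgfr2. Flrt3, a leucine-rich transmembrane protein that binds FGF receptors, was at 60.97 and 60.58 TPM. Flrt2 was at 24.49 and 25.48 TPM and Flrt1 at 6.31 and 5.11 TPM. The 3 Flrt genes kept the same order in both pools, with Flrt3 at 2.49 and 2.38 times Flrt2. Il17rd, also called Sef, a membrane inhibitor of FGF signalling, was at 4.60 and 4.01 TPM. Kl and Klb are the klotho genes, which endocrine FGFs need as co-receptors. Kl was at 0.32 and 0.07 TPM, and Klb at 0.02 and 0.03 TPM. So Fgf15, a ligand of the endocrine group, was abundant in tissue in which both klotho genes were below detection.

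All 5 adaptors were detected. Grb2 was highest at 72.55 and 67.44 TPM, followed by the phosphatase gene Ptpn11, coding for Shp2, at 20.19 and 19.91 TPM. Of the docking proteins, Frs2 stood at 14.71 and 11.03 TPM, and Frs3 at 11.51 and 8.70 TPM. Sos1, the exchange factor for RAS, was lowest at 3.49 and 3.02 TPM. Grb2 RNA thus exceeded Sos1 RNA by 20.8 and 22.3 times. Of 24 further genes of the RAS, ERK and PI3K cascade, 23 were detected, with a median of 43.9 TPM. Map2k2, a MEK kinase gene, led with 181.5 and 182.4 TPM and Nras followed with 134.1 and 124.3 TPM. The scaffold gene Ksr2 was lowest and below detection at 0.57 and 0.43 TPM. Of 16 genes that make or edit heparan sulfate, 15 were detected. Sulf1 and Sulf2, which remove sulfate groups from it outside the cell, had the highest means, Sulf1 at 74.83 and 73.71 TPM and Sulf2 at 70.43 and 58.14 TPM. In replicate 2 the polymerase gene Ext2, at 66.03 and 61.44 TPM, was above Sulf2. The sulfotransferase gene Hs6st3 was lowest at 0.03 and 0.05 TPM.

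Every measured feedback gene and target was detected. Dusp6, a phosphatase that inactivates ERK in the cytoplasm, was highest at 43.05 and 54.36 TPM. Dusp4, which acts on ERK in the nucleus, was at 24.22 and 14.36 TPM. Of the Sprouty inhibitors, Spry2 stood at 24.53 and 21.97 TPM, Spry1 at 15.38 and 16.66 TPM and Spry4 at 2.95 and 3.40 TPM. Spry4 was the lowest of these in both pools, and Spry1 was 5.21 and 4.90 times as high. The Spred genes, which inhibit RAF activation at the membrane, ranged from 3.11 to 7.17 TPM: Spred1 had 7.17 and 6.10 TPM, Spred2 5.75 and 4.98 TPM and Spred3 3.89 and 3.11 TPM. The Pea3 factors also kept one order in both pools. Etv5 had 20.6 and 17.5 TPM, Etv1 had 10.38 and 8.75 TPM and Etv4 had 8.86 and 7.97 TPM. All 9 other dual-specificity phosphatases of the list were detected, with Dusp1 at 24.31 and 18.41 TPM and Dusp9 at 14.03 and 27.51 TPM as the highest. Dusp2 was the lowest at 2.74 and 3.35 TPM.

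The pools were compared with each other as ratios of replicate 2 to replicate 1, from expected counts scaled by TMM, with an exact 95% interval that covers counting error only. Only genes whose mean reached 1 TPM were compared. Of the 35 members that did, 15 were above a ratio of 1 and 20 below it, and the median ratio was 0.922, or -0.12 on the log2 scale. The median over all 14768 such genes was 0.01 on the log2 scale. Past 1.5-fold there was 1 member higher in replicate 2, Fgf10, and 1 lower, Dusp4. Over all genes 3.09% lay past 1.5-fold higher in replicate 2 and 6.54% lower, so 1 of 35 in each direction is not set apart from them. With TPM ratios in place of scaled counts, 6 members with ratios near 1 moved from above to below 1: Etv4, Fgfr1, Fgfr3, Flrt3, Grb2 and Ptpn11. This left 9 above 1 and 26 below. The median over all 14768 genes was then -0.07 on the log2 scale, and that of the members -0.21.

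Fgf10 had 125 counts in replicate 1 and 337 in replicate 2, a ratio of 2.49 with an interval from 2.02 to 3.09. Both libraries gave all its reads to Fgf10-201, a model with 209 codons at chr13:118669791-118792115. Dusp4, at chr8:34807297-34819894, had 1878 and 1274 counts, a ratio of 0.627 with an interval from 0.584 to 0.674. Its relative Dusp6 went the other way, with 3408 and 4925 counts and a ratio of 1.34 (1.28 to 1.40). Dusp6 was therefore 1.78 times Dusp4 in replicate 1 and 3.79 times in replicate 2. Fgf18 lay just inside the 1.5-fold limit at 1.47 (1.20 to 1.81), and Fgf8 at 1.21 (1.08 to 1.35). Fgf17 at 0.794 (0.734 to 0.859), Frs2 at 0.793 (0.748 to 0.842), Fgfrl1 at 0.777 (0.698 to 0.865), Frs3 at 0.747 (0.663 to 0.841) and Cnpy1 at 0.739 (0.715 to 0.764) were within 1.5-fold, with intervals wholly below 1. Fgfr1, Fgfr2, Fgfr3, Flrt3, Grb2 and Ptpn11 had ratios between 1.02 and 1.10. Of the 23 RAS, ERK and PI3K cascade genes compared, 0 were past 1.5-fold, and their median ratio was 1.01. Of 9 other dual-specificity phosphatases, Dusp5 at 1.70 and Dusp9 at 2.07 were past 1.5-fold higher in replicate 2 and Dusp8 at 0.515 lower. Of 15 heparan sulfate genes, Ndst3 at 0.330 and Hs3st1 at 0.498 were past it and lower. Since each side is a single pool, these ratios describe the 2 pools and not a condition.

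**Figure D4:**
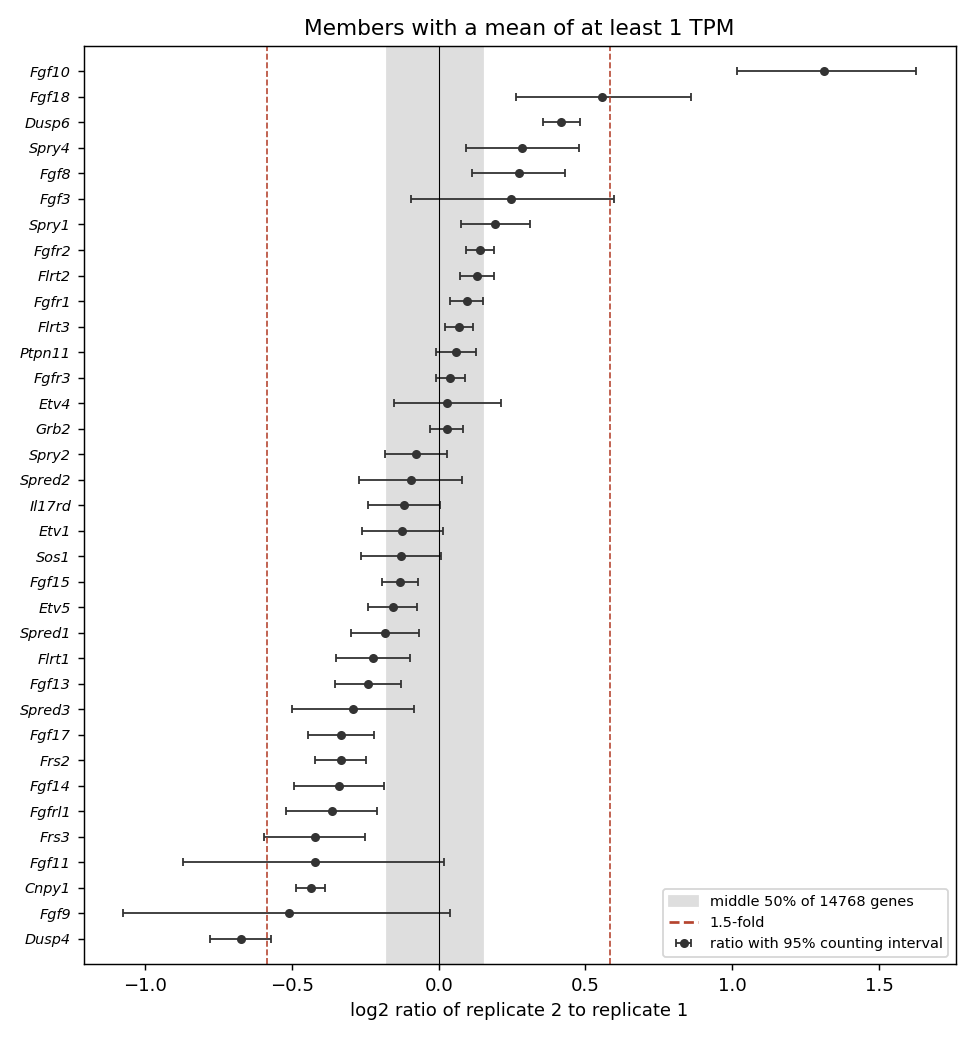
Log2 ratio of replicate 2 to replicate 1 for the 35 members whose mean reached 1 TPM, sorted, with exact 95% counting intervals. The dashed lines mark 1.5-fold and the grey band the middle 50% of all genes of that level. Fgf10 lies beyond the right line and Dusp4 beyond the left, and Dusp4's interval crosses that line.

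Markers of other cells and regions also differed between the pools. The 9 newborn neuron markers all had ratios below 1, 4 of them past 1.5-fold, and they summed to 1182 TPM in the first pool and to 752.2 TPM in the second. The 9 progenitor markers had ratios below 1 as well, with sums of 2760 and 2261 TPM. The sum of 12 markers of head mesenchyme and neural crest was 834.0 and 595.9 TPM. Of the 11 compared, 6 had ratios above 1 and 5 below, with a median of 1.01. Past 1.5-fold, Sox10 was higher in replicate 2 (0.46 and 2.15 TPM), and the collagen genes Col1a1 (149.3 and 72.56 TPM) and Col1a2 (118.7 and 72.51 TPM) were lower. The sums of 6 placode and ganglion markers, 30.4 and 38.4 TPM, of 8 surface ectoderm markers, 45.6 and 57.9 TPM, and of 6 eye markers, 9.53 and 15.7 TPM, were larger in replicate 2. Among the 6 surface ectoderm markers compared, 5 had ratios above 1, with 1 past 1.5-fold higher and 1 lower. All 5 red cell markers had ratios above 1, with sums of 11312 and 13232 TPM. The 4 macrophage markers, 3 of them below 1, summed to 53.7 and 37.8 TPM. The 6 endothelium markers summed to 141.2 and 151.1 TPM, with 0 past 1.5-fold. Skeletal muscle markers summed to 6.44 and 7.82 TPM. Of 6 hindbrain markers, 1 was detected, Hoxa3 was at 0 in both pools, and the sums were 3.91 and 4.87 TPM. Of 6 forebrain markers, 5 were detected, with sums of 55.1 and 44.1 TPM. Among them Lhx2 had 24.54 and 19.90 TPM, and Six3 was past 1.5-fold lower in replicate 2 (6.70 and 3.41 TPM). What part these differences have in the ratios of Fgf10, Dusp4 and the other members was not tested.

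Genes that set up the isthmic organizer or regulate Fgf8 were read beside the members. Of 11, 9 were detected, and none of these was past 1.5-fold. Otx2, a gene of forebrain and midbrain, had 138.0 and 122.7 TPM. Wnt1, the other signal of the border, had 18.58 and 20.38 TPM, close to Fgf8 in both pools. En2 at 0.92 and 0.71 TPM and Pax2 at 0.50 and 0.93 TPM were below detection. The detected genes of the list other than Otx2 and Wnt1 lay between 2.30 and 13.5 TPM. Summed, the list stood at 202.5 and 190.2 TPM, a ratio of 0.939. Otx2 made up most of both sums, so this ratio mainly describes Otx2.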

How the data were processed

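Total RNA sequencing of 2 libraries was used. Per the labels' protocols, the mirVana kit served for extraction, 10 ng of RNA above 200 nt was used, and spike-ins were added. The labels also link a manual for a kit that primes on poly(A) tails, so which RNAs were captured is not settled here. Per the file headers, gene and transcript tables are on mm10 with GENCODE M4 models. For the aligner, the quantifier and strand handling, names and settings were not given in the sources used here. The authors deposited expected counts, which are estimates shared among transcripts. The deposited TPM values are those counts per effective length, scaled per library, and FPKM values were deposited beside them. The deposited percent values give each transcript's share of its gene. The bounds of the deposited credible intervals are a signal in TPM units.

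Names and exons come from GENCODE M21 on the same assembly, matched by identifier. Of 43346 genes, 42462 matched, and 884 with 0.252% and 0.260% of counts did not. Of 191 member transcripts, 189 had an M21 model, 161 of them of equal length. Spike-ins (97 rows, 3.39% and 3.28% of counts) and 26248 other numbered rows were left out, which left 45531621 and 50477634 counts.

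Rounded expected counts were scaled with TMM factors (edgeR 4.0.16), and 0.5 was added to each count in ratios. A call needed 1.5-fold and a gene mean of 1 TPM or more. The ratio was tested on simulated counts of 14768 genes for replicate 2 against replicate 1. There it called 99.5% of the 200 that were changed 3-fold and 2.02% of the unchanged ones. The simulated counts held counting noise only and were scaled by their median ratio, not by TMM. These rates therefore leave out variation between pools and do not cover changes smaller than 3-fold. Since PCR copies are not independent, counting intervals and the 3-count floors leave out other error. IIIb and IIIc transcripts were those that hold the upstream or the downstream exon of the pair. The Fgfr3 exons were aligned with Biopython 1.88. Some sequences and 1 marker gene are not reported here, and list counts and sums include that gene.

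The members and lists were chosen with earlier results of these data known. All members are accounted for. Both libraries' values are given for detected members and those past 1.5-fold. For ligand and receptor genes of at least 10 TPM, transcripts with at least 10 percent of the gene in both libraries are named, and others, such as those with the IIIb exon, were named after their values were seen. Of other lists the 2 highest and the lowest genes are named; the genes named among markers were chosen after their values were seen. Alternatives were other TPM minimums and pseudocounts, FPKM, posterior means, DESeq2 1.42.0 size factors, other folds and filters, and each library left out.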

Additional observations from a re-analysis of the deposited data

How the results depend on the processing

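Of 61 recomputed values over 11 results, 41 stayed within the spread between the libraries or within 1.5 times the count, and 20 did not. Some of the 41 could not have failed. For shares, leaving out a library always stays within the SD, since either of 2 values lies within it of their mean. Gene shares in FPKM had to equal those in TPM, since both units are proportional within a library. The tally is therefore no measure of stability. Leaving out a library can give no ratio between the pools. The number of detected members ran from 32 to 36. Their median log2 level was 4.01 with a pseudocount of 0.1 and 3.59 in FPKM, and 3.94 to 4.03 with a library left out. The number of members past 1.5-fold was 1 at 2-fold (Fgf10), 1 with the whole interval past 1.5-fold and 1 at a mean of 5 TPM or more. It was 3 with TPM ratios, where Fgf9 joined, and 9 with no filter on low values. Without that filter Fgf1, Fgf4, Fgf7, Fgf16, Fgf22, Fgf23 and Kl joined, on at most 47 counts in a library. In expected counts the shares of Fgfr1, Fgfr2 and Fgfr3 were 26.8%, 38.0% and 35.0% and that of the Fgf8 subfamily 31.9%, since lengths differ. Receptor countings chosen after seeing the data left Fgfr4 out of the sum. They gave 27.5%, 34.0% and 38.5% for transcripts with the IIIb or IIIc exon. For coding transcripts inside the gene they gave 28.0%, 34.6% and 37.4%. The IIIb share of Fgfr1 was 0.768% with posterior means. That of Fgfr2 was 19.3% with posterior means and, in a counting also added after seeing the data, 13.8% in expected counts. The Fgf8 segment share, with 2 such added alternatives, was 51.0% with posterior means and 51.9% in expected counts. With 2 libraries the SD has little precision. Members with a mean under 1 TPM were left out of the main ratios, and most of them rest on few reads. Kl, with 47 and 12 counts, and Fgf12, with 86 and 71, had more.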
